A study of Mus musculus with 6 samples.

Results

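The mouse type 2 cytokine region on chromosome 11 was followed in CD4 T cells of the lung through the cytokine genes Il4, Il5, Il13, Il3 and Csf2 and their neighbours Rad50, Kif3a and Irf1. The genes and the gene lists below were chosen by name, with earlier results of these data known. Their counts beside shares of all genes are thus a description and no test. All 8 genes were measured among the 22180 genes of the table. Each was read from a probe set with exactly 1 gene symbol, the brightest over the 6 arrays where there were several, which applied to Csf2 alone. The cells came from wild-type mice that were sensitised and challenged with house dust mite (HDM), an allergen mixture that provokes allergic airway inflammation, or with PBS, a buffered saline, in its place. CD45+ CD4+ cells without CD11b or the macrophage protein of Adgre1 were sorted from digested lung, and their RNA was hybridised to Affymetrix Mouse Gene 2.0 ST arrays, 3 for PBS and 3 for HDM, 1 array per sample. The labels do not state strain, age, dose, days of treatment or how many mice made up a sample, and the gate would also hold CD4+ cells that are not T cells. The titles call the samples biological replicates, and the p-values set group differences against the spread between samples. Whether that spread is between single mice or pools is not stated.

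Il4, Il5 and Il13 are the signature cytokines of T helper 2 (Th2) cells: IL-4 drives Th2 differentiation and IgE switching, IL-5 supports eosinophils, and IL-13 acts on airway epithelium and mucus. Il4 and Il13 lie side by side, with Rad50, a DNA repair gene whose 3′ part carries the Th2 locus control region, between Il13 and Il5. Il3 and Csf2, which encodes GM-CSF, form a second pair of haematopoietic cytokine genes in the same chromosomal region. Kif3a encodes a kinesin motor subunit, and Irf1 a transcription factor induced by interferon that favours Th1 responses.

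The sequences before the starts of Il4, Il13 and Il5 are shown because these were the 3 members that rose. Each runs 5′ to 3′ along the gene over the 250 bases before the start and comes from RefSeq (build GRCm38.p6). For Il4 it is the outer of the starts listed. Capitals mark GATA, the core bound by GATA factors, and GGAAA, the core bound by NFAT, on either strand, where they read TATC and TTTCC.
Il4, chr11:53618666-53618915, minus strand: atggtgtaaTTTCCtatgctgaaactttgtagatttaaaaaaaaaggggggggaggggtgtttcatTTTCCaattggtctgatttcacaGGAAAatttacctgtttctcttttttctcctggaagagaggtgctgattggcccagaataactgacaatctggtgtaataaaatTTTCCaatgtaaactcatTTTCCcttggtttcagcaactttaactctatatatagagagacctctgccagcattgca
Il13, chr11:53634703-53634952, minus strand: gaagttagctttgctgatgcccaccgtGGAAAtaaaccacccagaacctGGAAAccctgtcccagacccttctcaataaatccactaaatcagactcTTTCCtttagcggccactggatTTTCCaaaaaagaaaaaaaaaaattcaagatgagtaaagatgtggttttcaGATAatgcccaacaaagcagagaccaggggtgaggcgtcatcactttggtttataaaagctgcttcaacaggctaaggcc
Il5, chr11:53720544-53720793, plus strand: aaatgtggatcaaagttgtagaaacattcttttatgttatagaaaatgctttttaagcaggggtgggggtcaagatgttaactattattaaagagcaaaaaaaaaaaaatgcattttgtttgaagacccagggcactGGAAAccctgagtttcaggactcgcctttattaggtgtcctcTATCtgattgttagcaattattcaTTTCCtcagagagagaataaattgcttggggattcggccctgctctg
The Il4 sequence held 5 matches to GGAAA and 0 to GATA, the Il13 sequence 4 and 1, and the Il5 sequence 2 and 1. The other start listed for Il4, farther along the gene, had 3 matches to GATA and 0 to GGAAA. Of 32851 mouse sequences of the same length, 55.6% held GGAAA at least once and 53.6% held GATA, 0.39% held 5 or more GGAAA, as Il4 did, 1.59% held 4 or more, as Il13 did, and 21.4% held 2 or more, as Il5 did. The Il3 sequence held 1 match to GGAAA and 2 to GATA, that of Csf2 2 and 3 (held at least as often by 21.4% and 9.62% of sequences), and that of Kif3a 1 and 0. The outer start of Irf1 had 2 matches to GGAAA and 0 to GATA, and its other start had 0 to either. TGANTCA, the AP-1 element, had 0 matches in the 9 member sequences listed and was held by 6.75% of all sequences. Of the 2 spacings of the STAT element searched, TTCNNNGAA matched once, in Irf1, and the one with 4 bases between TTC and GAA once, in Il4, and both matches overlapped a GGAAA. They were held by 7.02% and 5.85% of all sequences. Rad50 had no entry in the promoter table. A match is a description of the letters and not a binding site.

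The arrays had median signals between 6.57 and 6.64 on the log2 scale used throughout. Of the 22180 genes, 531 were higher (2.39%) and 345 lower (1.56%) in HDM, together 3.95%, by limma with Benjamini-Hochberg adjustment at 0.05. Of the 8 region genes, 3 rose, 0 fell and 5 did not pass. Without adjustment, at p below 0.05, 6 were higher and 1 was lower, beside 8.67% and 9.17% of all genes, together 17.8%. Without 1 array other than HDM replicate 3, 2 of the 8 rose and 0 fell, beside 177 to 410 and 41 to 347 of all genes. Without HDM replicate 3, 5 rose and 1 fell, beside 845 and 722 of all genes. In 5 genes all HDM values lay above all PBS values, which 10.8% of all genes showed, and in 1 they lay below, which 11.8% showed. The median difference of the 8 genes was 0.55, beside −0.01 over all genes. Sorted cells are a bulk sample, so more cells making a transcript and more transcript per cell cannot be told apart.

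Il13 had the second highest difference of all 22180 genes. Its log2 signal was 7.39, 7.52 and 7.18 in PBS replicates 1, 2 and 3, and 10.98, 11.29 and 9.88 in the HDM replicates. The lowest HDM array stood well above every PBS array. The mean rose from 7.37 ± 0.17 to 10.72 ± 0.74 (SD, n = 3 each), a log2 difference of 3.35 ± 0.32 (SE, adjusted p = 0.00274), or 10.2-fold, with a 95% interval of 2.61 to 4.10.

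Il5 read 6.54, 6.27 and 6.18 in the PBS arrays and 8.71, 8.98 and 7.89 in the HDM arrays. The groups were again apart, with HDM replicate 3 the lowest of its group. Il5 rose 4.58-fold (2.19 ± 0.26 SE, adjusted p = 0.00553, 95% interval 1.60 to 2.79) and was 20th of all genes by difference.

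Il4 read 5.98, 6.17 and 6.25 in the PBS arrays and 8.10, 8.35 and 6.80 in the HDM arrays. HDM replicate 3 lay much closer to the PBS arrays than the other HDM arrays did, yet above all of them. Il4 rose 3.07-fold (1.62 ± 0.35 SE, 95% interval 0.80 to 2.44), and its adjusted p of 0.0489 was just inside the threshold. The call was lost without any 1 array other than HDM replicate 3 (adjusted p of up to 0.179), and without HDM replicate 3 the difference was 2.09 (adjusted p = 0.000391). With all arrays it was lost under 6 other settings of the analysis as well (adjusted p from 0.0501 to 0.0639). Il13 and Il5 passed without any 1 array.

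**Figure D1:**
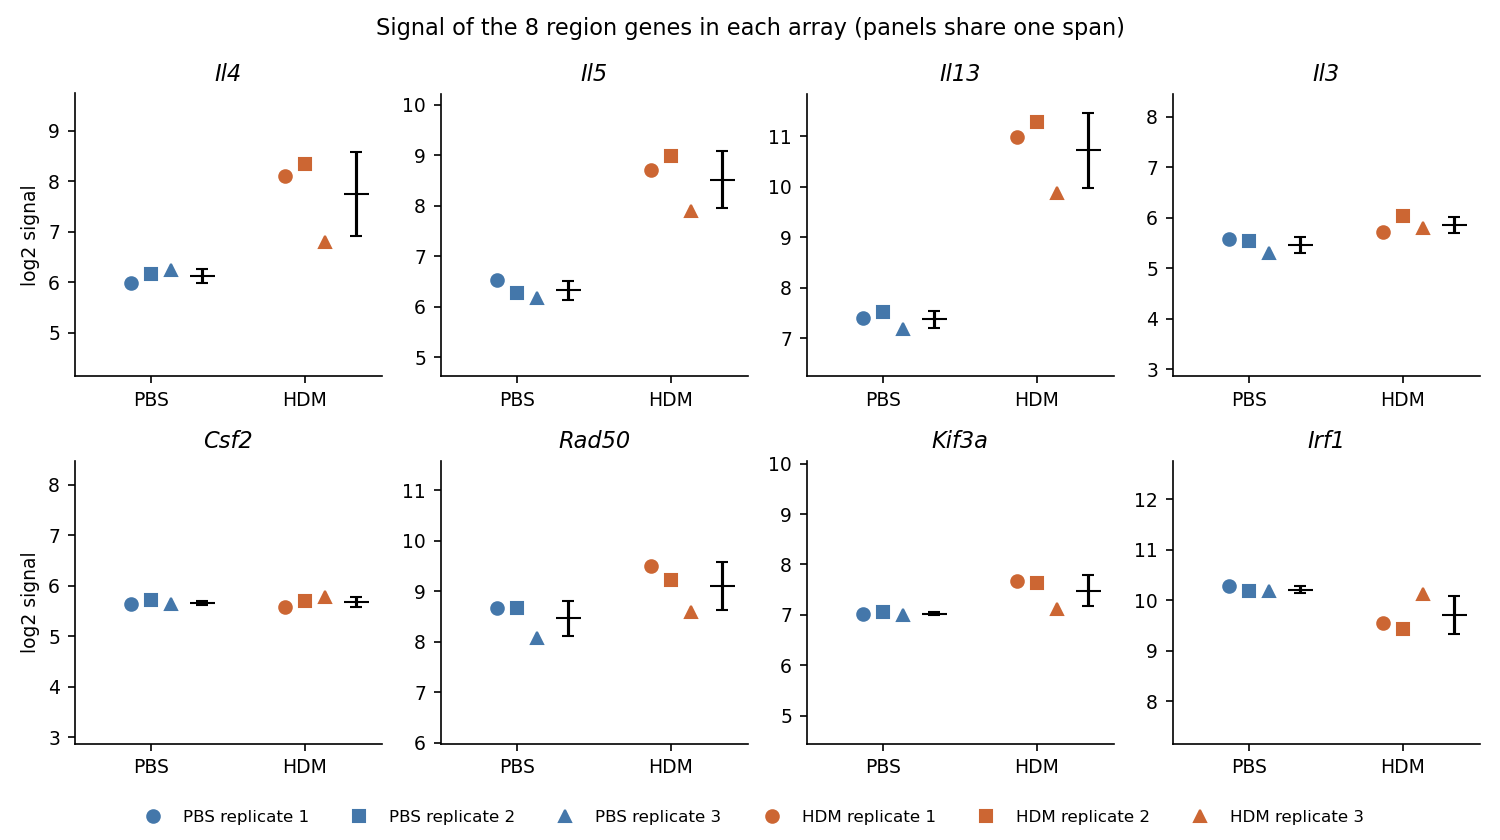
Each panel shows 1 gene's log2 signal (vertical axis) in the 3 PBS and 3 HDM arrays, with marker shapes for the replicate number and black bars for the mean ± SD; all panels span the same number of log2 units. Il13, Il5 and Il4 have all HDM arrays above the PBS arrays, and HDM replicate 3 is the lowest HDM array in each.

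The 3 rising cytokines spread more within HDM than within PBS. The HDM SD was 0.83 for Il4, 0.74 for Il13 and 0.57 for Il5, larger than that of 99.6%, 99.4% and 98.3% of all genes. In PBS the SDs were 0.14, 0.17 and 0.19, larger than that of 61.3%, 72.4% and 77.6% of all genes. Wide HDM spread was not limited to these cytokines. The HDM SDs of Rad50, Irf1 and Kif3a were larger than that of 97.2%, 94.7% and 91.7% of all genes. In Il4, Il5 and Il13, HDM replicate 2 was the highest HDM array and replicate 3 the lowest. This order was held by 22.8% of the 531 raised genes and 19.4% of all genes. In 6 of the 8 region genes HDM replicate 3 was the HDM array nearest to the PBS mean, as it was for 40.4% of all genes and 54.2% of the raised ones; the other 2 were Il3 and Csf2.

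Il3, a growth factor for mast cells and basophils, read 5.59, 5.54 and 5.30 in PBS and 5.73, 6.03 and 5.80 in HDM. All HDM arrays lay above the PBS arrays, by a small margin. The difference of 0.38 ± 0.12 (SE, 95% interval 0.11 to 0.65) did not pass (adjusted p = 0.134).

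Csf2, whose product activates macrophages, dendritic cells and granulocytes, read 5.64, 5.71 and 5.64 in PBS and 5.57, 5.70 and 5.77 in HDM. The groups overlapped, and the difference was 0.02 ± 0.09 (SE, adjusted p = 0.95, 95% interval −0.18 to 0.22). Its other probe set, dimmer over the 6 arrays, read 5.07, 5.58 and 5.07 in PBS and 5.39, 5.45 and 5.81 in HDM, a difference of 0.31 ± 0.17 (SE) that did not pass either (adjusted p = 0.417 over all probe sets with 1 symbol). Il3 and Csf2 were the members that a filter at the 25th percentile of mean signal, 5.70, would have dropped, each with a mean of 5.67. A dim probe set can hide a change, so these values set no bound on their transcripts.

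Rad50 read 8.67, 8.66 and 8.07 in PBS and 9.50, 9.23 and 8.58 in HDM. HDM replicate 3 fell below 2 PBS arrays, so the groups overlapped, and the difference of 0.64 ± 0.25 (SE) did not pass (adjusted p = 0.231). The arrays numbered 3 were the lowest of both groups. The replicate number was also used as a block, because same-numbered arrays deviated together, least so those numbered 2 (correlation 0.172). The labels do not state such a pairing. It was judged from these same arrays, so p-values with the block depend on that choice. With the block Rad50 rose (0.64 ± 0.09 SE, adjusted p = 0.00528). Within the numbers it was higher in HDM by 0.83, 0.57 and 0.52. Of all genes 5.95% rose and 6.01% fell with the block, and the other members kept their calls under it.

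Kif3a read 7.02, 7.05 and 6.99 in PBS and 7.68, 7.64 and 7.12 in HDM. All HDM values were above the PBS values, but HDM replicate 3 only just. The difference was 0.46 ± 0.15 (SE, adjusted p = 0.161; 0.054 with the block).

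Irf1 was the member with lower values in HDM. It read 10.29, 10.18 and 10.18 in PBS and 9.55, 9.44 and 10.13 in HDM. The groups did not overlap, but HDM replicate 3 was within 0.05 of PBS replicate 3, while the other HDM arrays lay 0.74 below their PBS counterparts. The difference of −0.51 ± 0.17 (SE) did not pass (adjusted p = 0.164; 0.0562 with the block). Without HDM replicate 3, Rad50 and Kif3a rose (0.90, adjusted p = 0.0368, and 0.64, adjusted p = 0.0102) and Irf1 fell (−0.72, adjusted p = 0.00543). With all arrays kept but given limma array weights, Kif3a and Irf1 passed as well (adjusted p = 0.0392 and 0.0339).

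**Figure D2:**
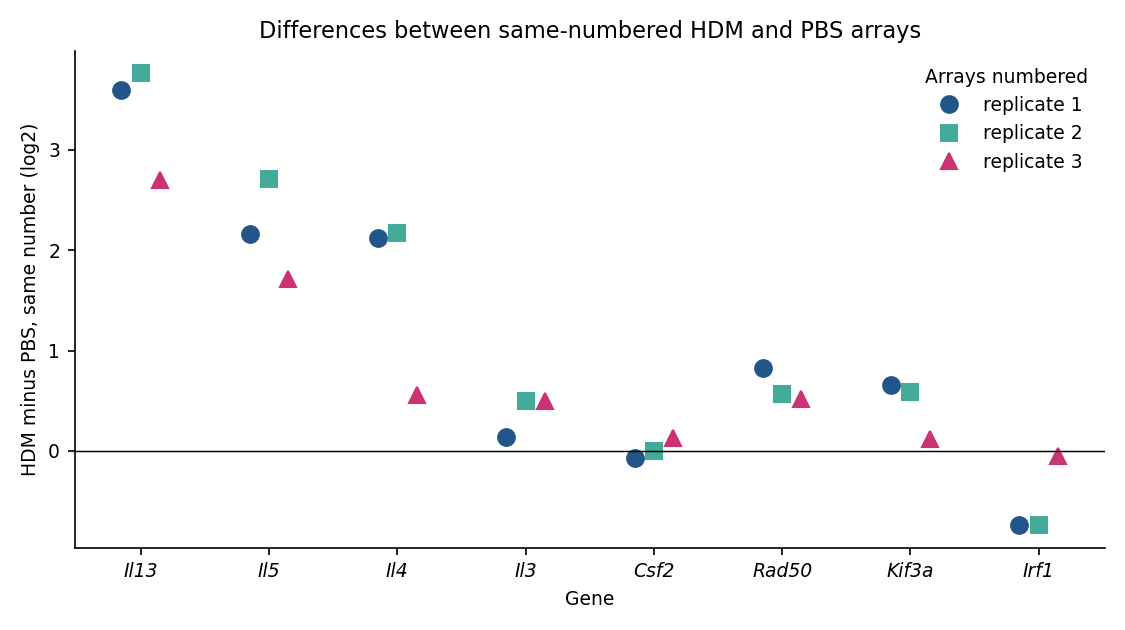
For each gene the points give the log2 signal of an HDM array minus that of the PBS array with the same replicate number (vertical axis; 3 differences per gene). Il13 runs from 2.70 to 3.76 and Il5 from 1.71 to 2.71, whereas Il4 drops to 0.56 in the arrays numbered 3 and Irf1 comes to −0.05 there.

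To set the cytokines against their neighbours, the log2 signal of each neighbour was subtracted from that of each cytokine within every array, and the change of this value between groups was tested in 15 pairs. The pairs share genes and so are not independent. With 3 arrays against 3, the smallest p of the exact two-sided permutation test is 0.1, so no pair could pass 0.05. Il13 gained 2.71 log2 units on Rad50, 2.90 on Kif3a and 3.86 on Irf1. The Il13 minus Rad50 value was −1.28, −1.13 and −0.88 in PBS and 1.49, 2.06 and 1.30 in HDM. Il5 gained 1.55, 1.74 and 2.70 on the same neighbours. Il4 gained 0.98, 1.16 and 2.12, and its margin over Rad50 was narrow: the highest PBS value was −1.82 and the lowest HDM value −1.78. These 9 pairs had groups that did not overlap (exact permutation p = 0.1, adjusted p = 0.136 over the 15 pairs). Il3 and Csf2 did not gain on Rad50 (−0.26 and −0.62) or Kif3a (−0.08 and −0.44), where the groups overlapped. Their gains on Irf1 of 0.89 and 0.53 came without overlap (exact permutation p = 0.1, adjusted p = 0.136). Irf1 itself differed by −0.51, Il3 by 0.38 and Csf2 by 0.02, so all gains on Irf1 include its own lower HDM values. Without 1 array, between 11 and 14 pairs did not overlap. Leaving out an array can only keep or remove an overlap, so this count could not fall below 11.

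The change was also followed along the chromosome, in the order of RefSeq genes. Between the outermost members, Kif3a and Il3, 15 genes were measured, and 10 more were taken on each side. Of the 27 genes in this stretch that are not members, 0 passed by limma and 3 had an unadjusted p below 0.05, as 17.8% of all genes did. With the block 1 rose and 2 fell, beside 5.95% and 6.01% of all genes. The median difference of the 27 was −0.08, with a range from −0.44 to 0.67. Among the genes between Irf1 and Csf2 were the carnitine and organic cation transporters Slc22a5 (−0.01 ± 0.08 SE) and Slc22a4 (−0.17 ± 0.13), and P4ha2, a collagen prolyl hydroxylase (−0.21 ± 0.09). The nearest measured neighbour beyond Kif3a, A430108G06Rik, differed by −0.02 ± 0.09, and the one beyond Il3, Acsl6, a fatty acid CoA ligase, by 0.09 ± 0.08.

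Septin8, a cytoskeletal GTPase gene that lies next but one to Kif3a, had the largest difference among the 27 and was singled out after its values were seen. It read 6.89, 6.97 and 6.95 in PBS and 7.95, 7.59 and 7.28 in HDM. The groups did not overlap, and the difference of 0.67 ± 0.16 (SE) did not pass (adjusted p = 0.0642) but rose with the block (adjusted p = 0.0237). The genes lower with the block were Pdlim4 (−0.41, adjusted p = 0.205, 0.0384 with the block) and Tnip1 (−0.33, adjusted p = 0.405, 0.0227 with the block), likewise named after the fact. Over all 1656 measured genes of chromosome 11, 39 were higher (2.36%) and 16 lower.

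**Figure D3:**
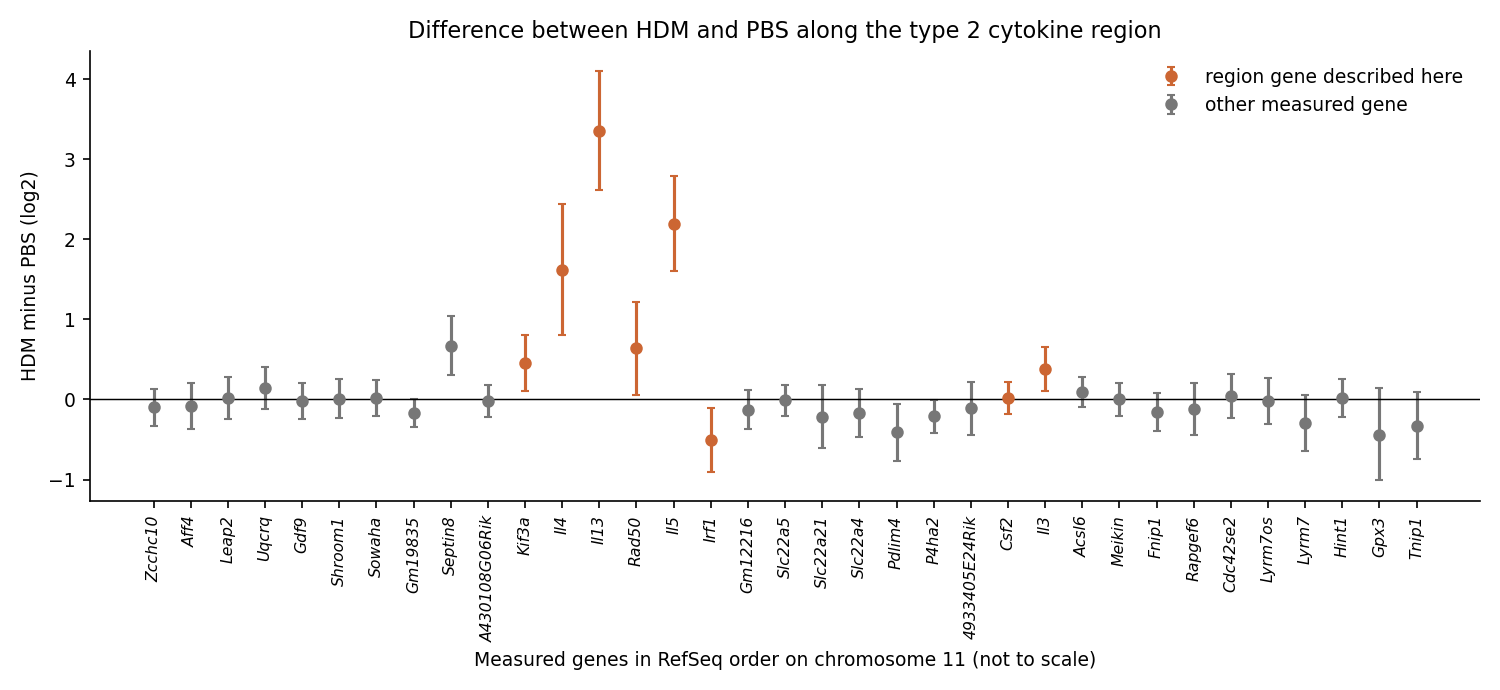
The log2 difference HDM minus PBS (vertical axis, with the 95% interval of the fit) is drawn for 35 measured genes in their order on chromosome 11. Il13 (3.35), Il5 (2.19) and Il4 (1.62) stand above the rest, with Rad50 between them at 0.64, and the 27 other genes lie between −0.44 and 0.67.

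Genes whose profile lay closest to each of the 3 cytokines were found by the root mean square difference of mean-centred log2 signals over the 6 arrays. They were picked on these same arrays. Their differences, p-values and any low HDM replicate 3 thus follow from the choice and are no separate result. For Il5 the closest was Cysltr1, a cysteinyl leukotriene receptor, at 0.10. It read 7.45, 7.46 and 7.23 in PBS and 9.81, 9.88 and 8.94 in HDM (2.16 ± 0.24 SE, adjusted p = 0.00418). Apol9b and Ly6g5b, Itgae, the CD103 integrin chain, and Pparg, a nuclear receptor active in Th2 cells, followed at 0.23 to 0.24. Il4 stood 0.38 from Il5 and Il13 0.60.

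For Il4 the closest was Vipr2, a receptor for vasoactive intestinal peptide, at 0.13 (1.49 ± 0.28 SE, adjusted p = 0.0306). It read 6.85 to 7.0 in PBS and 8.79, 8.84 and 7.69 in HDM, with the same low HDM replicate 3. Akr1c18, a steroid dehydrogenase, stood at 0.16, Ccl8, a chemokine, at 0.21, and Mmp13, a collagenase, and Amph, amphiphysin, at 0.24. Of these 5, Vipr2 and Amph passed (adjusted p = 0.0214 for Amph), and both lost the call without any 1 array other than HDM replicate 3 (adjusted p of up to 0.125 and 0.0971). Akr1c18, Ccl8 and Mmp13 did not pass (adjusted p = 0.125, 0.0708 and 0.115). Akr1c18 and Ccl8 passed with the block (0.0285 and 0.0245), and all 3 passed without HDM replicate 3 (0.000818, 0.000403 and 0.00156).

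The genes nearest to Il13 were farther from it. The first was Fgl2, a secreted protein of regulatory T cells, at 0.38, followed by Pparg and Itgae at 0.47, Cxcr6, the receptor for CXCL16, at 0.50, and Retnla, a secreted protein induced by IL-4 and IL-13, at 0.54. The first 4 had smaller differences than Il13, from 2.50 to 2.92, and Retnla a larger one (3.85 ± 0.65 SE, adjusted p = 0.0192), which lost the call without any 1 array other than HDM replicate 3 (adjusted p of up to 0.0919).

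The receptors of these cytokines gave a single call. Of 8 measured receptor genes 0 rose, 1 fell and 7 did not pass, while at an unadjusted p below 0.05 2 were higher and 1 lower, beside 8.67% and 9.17% of all genes. The list's median difference was 0.15. Il4ra, the chain shared by the IL-4 and IL-13 receptors, fell from 11.86, 11.96 and 12.02 in PBS to 10.99, 10.96 and 11.59 in HDM. HDM replicate 3 again lay nearest to PBS. The difference was −0.77 ± 0.16 (SE, adjusted p = 0.0421), and the call was lost without any 1 array other than HDM replicate 3 (adjusted p of up to 0.172). Csf2rb, the beta chain of the IL-3, IL-5 and GM-CSF receptors, differed by 0.32, Il3ra by 0.30, Il5ra by 0.12 and Il13ra1 by −0.15, none of which passed. Il2rg was not analysed here.

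Among 10 measured kinases, STAT factors and inhibitors that relay these receptors, 1 rose, 1 fell and 8 did not pass (median −0.10). At an unadjusted p below 0.05, 3 were higher and 4 lower, beside 8.67% and 9.17% of all genes. Cish, a feedback inhibitor induced by STAT5, rose 2.22-fold (1.15 ± 0.09 SE, adjusted p = 0.00135). It read 9.61, 9.66 and 9.46 in PBS and 10.79, 10.70 and 10.70 in HDM, and HDM replicate 3 was not low. Jak1, a kinase of the IL-4 receptor, fell by 0.29 (SE 0.06, adjusted p = 0.0299), and dropped out when any of the arrays numbered 1 or 2 was omitted (adjusted p of up to 0.14). Stat6, the main transducer of IL-4, differed by 0.00 ± 0.07. With the block 3 of the 10 rose and 4 fell, beside 5.95% and 6.01% of all genes. Stat5a was among those that fell (−0.65, adjusted p = 0.126, 0.00329 with the block).

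Of 23 measured factors known to act on the cytokine region or on Th2 differentiation, 5 rose, 2 fell and 16 did not pass, and the median was 0.08. At an unadjusted p below 0.05, 9 were higher and 3 lower, beside 8.67% and 9.17% of all genes. Rbpj, the DNA-binding partner of Notch, rose 3.58-fold (1.84 ± 0.13 SE, adjusted p = 0.0011), and Maf, an activator of Il4, 2.96-fold (1.57 ± 0.08, adjusted p = 0.000281). Gata3, the Th2 master factor, rose 2.03-fold (1.02 ± 0.13, adjusted p = 0.00722). Its 3 HDM arrays read 10.70, 10.66 and 10.26 against 9.62, 9.53 and 9.40 in PBS, but a dimmer probe set differed by only 0.31. Irf4, a factor of activated and Th2 cells, rose 2.01-fold (1.01 ± 0.18, adjusted p = 0.0227) but not when PBS replicate 1, PBS replicate 3 or HDM replicate 2 was omitted (highest adjusted p 0.105).

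The fifth raised factor, outside the naming rule, was Nfatc2, an NFAT factor of T cell receptor signalling (0.48 ± 0.09, adjusted p = 0.0324), which lost the call without any 1 array other than HDM replicate 3 (adjusted p of up to 0.155). The 2 lowered factors, also outside the rule, were Satb1, a chromatin organiser of the cytokine region (−0.89 ± 0.12, adjusted p = 0.0102; up to 0.0546 without PBS replicate 1, PBS replicate 2 or HDM replicate 1), and Lef1, a factor of naive T cells (−0.85 ± 0.08, adjusted p = 0.00249). Tbx21, the Th1 master factor, differed by 0.03 ± 0.31, and Ctcf, an architectural factor, by 0.01 ± 0.15. With the block 10 of the 23 factors rose and 3 fell, beside 5.95% and 6.01% of all genes. Without 1 array 3 to 7 rose and 1 or 2 fell, beside 177 to 845 and 41 to 722 of all genes. The most rose without HDM replicate 3 and the fewest without PBS replicate 1, PBS replicate 3 or HDM replicate 2.

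**Figure D4:**
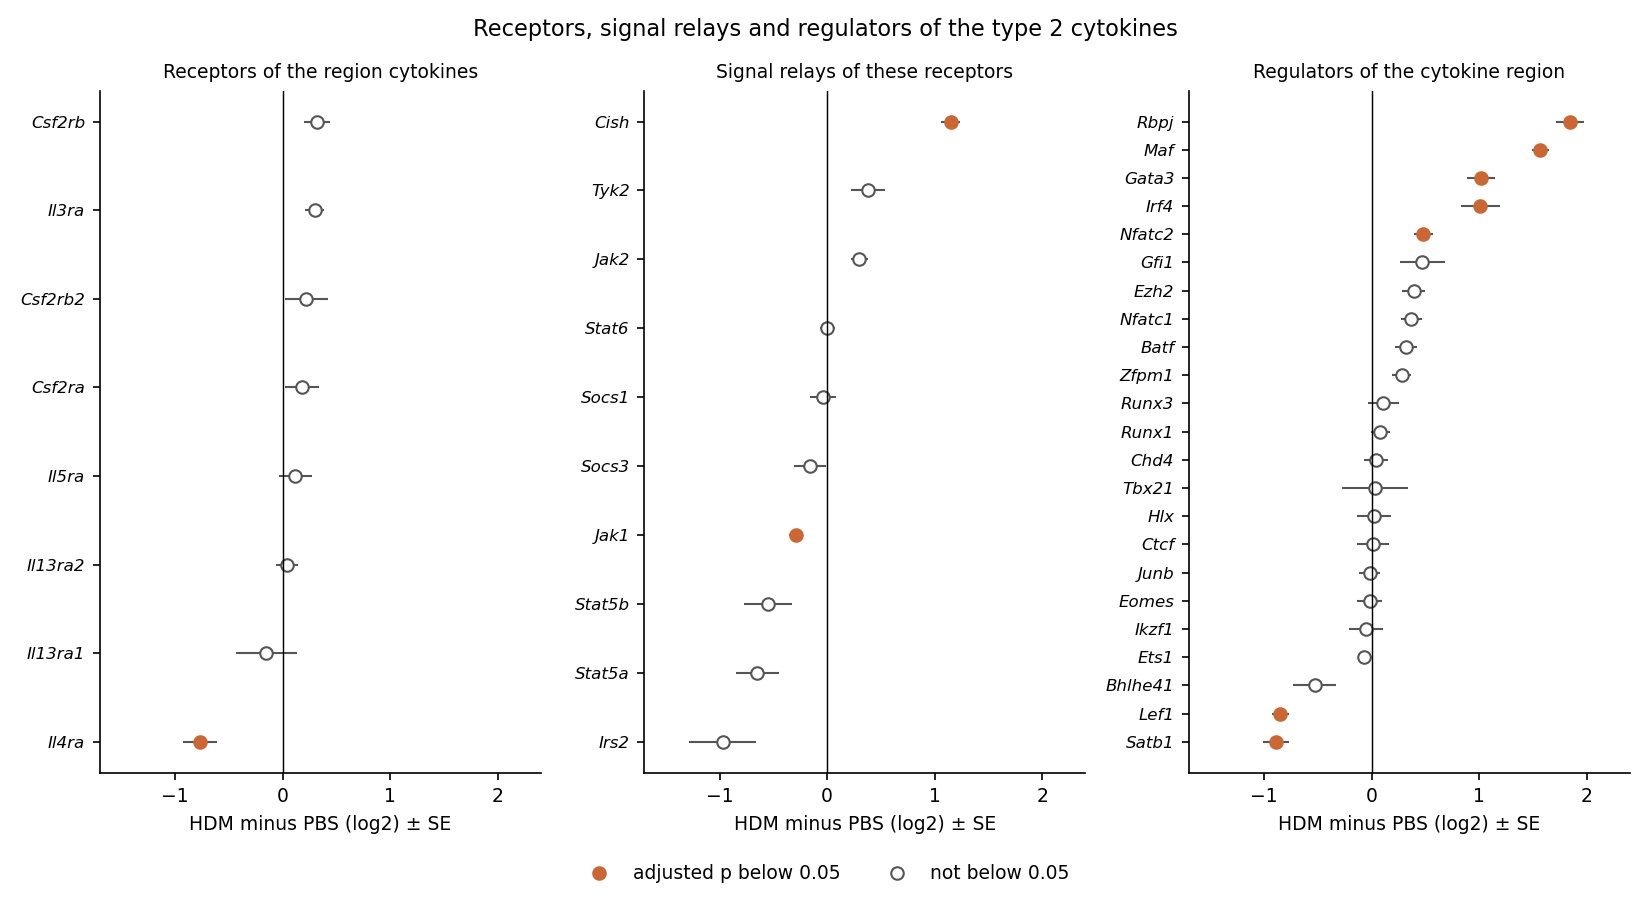
Points give the log2 difference HDM minus PBS (horizontal axis) with its SE for the measured receptors, signal relays and regulators; filled points have an adjusted p below 0.05. Rbpj, Maf, Cish, Gata3 and Irf4 lie above 1, and Il4ra, Satb1 and Lef1 are the filled points furthest to the left.

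Of 19 other helper T cell cytokine genes 5 rose, 0 fell and 14 did not pass (median 0.32; 8 higher and 0 lower at an unadjusted p below 0.05, beside 8.67% and 9.17% of all genes). Il10, an anti-inflammatory cytokine, read 7.12, 7.36 and 7.17 in PBS and 10.18, 10.53 and 10.75 in HDM (3.27 ± 0.15 SE, adjusted p = 0.000178). Here HDM replicate 3 was the highest array, unlike in Il13. Il17a (1.84 ± 0.21, adjusted p = 0.00482), Il21 (1.38 ± 0.27, adjusted p = 0.033) and Tnfsf11, which encodes RANKL (1.15 ± 0.17, adjusted p = 0.0112), rose as well, as did Tgfb1, outside the rule (0.49 ± 0.10, adjusted p = 0.0414). Il21 and Tgfb1 lost the call without any 1 array other than HDM replicate 3, and Tnfsf11 without HDM replicate 1 or 2 (adjusted p of up to 0.122, 0.141 and 0.0621). Without HDM replicate 1 or 2, 2 of the 19 rose, and without PBS replicate 1 or 2, 3 did, beside 177 to 202 of all genes. With the block 6 of the 19 rose and 0 fell, beside 5.95% and 6.01% of all genes. Ifng, the Th1 cytokine, differed by −0.12 ± 0.33 (adjusted p = 0.907), and Il9, another type 2 cytokine, by 0.03 ± 0.11. Il9 was as dim as Il3 and Csf2, at 5.09 to 5.40 over the 6 arrays, so its values set no bound on its transcript.

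Of 5 measured alarmin and costimulatory receptors 2 rose: Il17rb, a chain of the IL-25 receptor (2.20 ± 0.43, adjusted p = 0.0335), and Icos (0.60 ± 0.08, adjusted p = 0.00916). Il17rb read 10.43, 10.11 and 8.54 in HDM against 7.28 to 7.65 in PBS, low in replicate 3 as Il4 was. It lost the call without any 1 array other than HDM replicate 3 (adjusted p of up to 0.139), and Icos without HDM replicate 2 (0.0525). With the block 2 of the 5 rose and 1 fell, Il7r (−0.22, adjusted p = 0.0235 with the block), beside 5.95% and 6.01% of all genes. At an unadjusted p below 0.05, 3 were higher and 1 lower, beside 8.67% and 9.17% of all genes. Il1rl1 and Ptgdr2 were not analysed here.

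Of 10 genes that IL-4 and IL-13 induce in other cells, 3 rose, 0 fell and 7 did not pass (median 0.94; 6 higher and 0 lower at an unadjusted p below 0.05, beside 8.67% and 9.17% of all genes). Beside Retnla these were Chil3, a chitinase-like protein of macrophages (2.11 ± 0.38, adjusted p = 0.0248; up to 0.11 when any of the arrays numbered 1 or 2 was omitted), and Ccl17, a chemokine for Th2 cells (1.26 ± 0.11, adjusted p = 0.00249). Clca1, a product of goblet cells, read 5.82, 5.80 and 6.04 in PBS and 7.70, 8.83 and 6.66 in HDM, without overlap (1.85 ± 0.46, adjusted p = 0.0719; 0.0226 with the block). Its HDM arrays had the order of Il4 and Il13. With the block 5 of the 10 rose, beside 5.95% of all genes. Without HDM replicate 3, 6 rose, without PBS replicate 3, 2, and without any of the other arrays, 1, Ccl17. Of all genes 845, 410 and 177 to 202 were higher in these settings.

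Relatives and partners of the neighbours gave few calls. Of 7 measured interferon regulatory factors, Irf1 included, 1 rose, Irf4, and 0 fell (median −0.01; 1 higher and 1 lower at an unadjusted p below 0.05, beside 8.67% and 9.17% of all genes). Of 6 partners of RAD50 and KIF3A 0 passed by limma and 0 had an unadjusted p below 0.05, and 1, Kif3b, rose with the block (0.30, adjusted p = 0.301, 0.0485 with the block). Mre11a, which encodes the nuclease that RAD50 binds, differed by 0.00 ± 0.12.

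The labelled cell type was checked against 9 measured markers of CD4 T cells, of which Thy1 rose (0.36), Trat1 fell (−0.59) and 7 did not pass. Thy1 had an adjusted p of up to 0.105 when any of the arrays numbered 1 or 2 was omitted. With the block 3 rose, Thy1, Cd3g and Cd5, and 1 fell, beside 5.95% and 6.01% of all genes. At an unadjusted p below 0.05, 3 were higher and 1 lower, beside 8.67% and 9.17% of all genes. The summed linear signal of the 9 markers was 40355 to 41755 in PBS and 42461 to 44199 in HDM. Cd4 lay between 12.47 and 12.73 in every array. Mast cells, basophils, eosinophils and type 2 innate lymphoid cells can also make these cytokines. Of 8 mast cell and 6 basophil markers 0 passed by limma and 0 had an unadjusted p below 0.05; with the block Hdc, in both lists, rose and Kit fell. The sums overlapped between groups (367 to 578 in PBS and 408 to 577 in HDM for mast cells, 274 to 373 and 345 to 430 for basophils). A filter at the 25th percentile of mean signal kept only 2 of the 8 mast cell and 2 of the 6 basophil markers. A dim probe set can hide a change, so the dropped markers set no bound on their transcripts. Of 5 eosinophil markers 1 rose, Ccr3, which T cells also express. The sum was 295 to 347 in PBS and 455 to 502 in HDM, without overlap, or 253 to 277 and 259 to 285 without Ccr3. The filter at the 25th percentile kept 4 of these 5 markers and one at the median 0. At an unadjusted p below 0.05, 1 of the 5 was higher and 1 lower.

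Of 5 measured markers of type 2 innate lymphoid cells, all shared with T cells or other cells, 1 rose, Klrg1 (1.20). With the block 4 rose and 1 fell, beside 5.95% and 6.01% of all genes. At an unadjusted p below 0.05, 4 were higher and 0 lower, beside 8.67% and 9.17% of all genes. The sum was 4991 to 6076 in PBS and 8225 to 10441 in HDM, or 1573 to 2281 and 3341 to 3513 without Id2. Of 9 macrophage and monocyte markers 1 rose, Chil3, and the sum was 3913 to 4547 in PBS and 6455 to 7973 in HDM, or 3121 to 4204 and 3288 to 5349 without Chil3. With the block 2 of the 9 rose, Chil3 and Csf1r, and 0 fell. At an unadjusted p below 0.05, 1 was higher and 0 lower. Of 5 dendritic cell markers 1 rose, Itgax (1.06), with sums of 1653 to 1890 and 1963 to 2131. Of 6 epithelial markers 1 rose, Cdh1 (0.82), and the sums overlapped. A dimmer probe set of Cdh1 differed by only 0.09, and with averaged probe sets 0 of the 6 rose. With the block 1 epithelial marker rose and 1, Sftpc, fell. Of 7 endothelial and stromal markers 1 fell, Pecam1 (−0.51), with sums of 4117 to 5380 and 2834 to 4165 and 4 lower with the block. At an unadjusted p below 0.05, 1 dendritic cell and 2 epithelial markers were higher, and 1 endothelial and stromal marker was lower. Cdh1 lost the call without any 1 array other than HDM replicate 3 (adjusted p of up to 0.113), Pecam1 when any of the arrays numbered 1 or 2 was omitted (0.0961), Itgax without any PBS array or HDM replicate 2 (0.132), and Klrg1 without PBS replicate 1, HDM replicate 1 or HDM replicate 2 (0.0602). Of 4 B cell markers and of 6 NK and CD8 T cell markers 0 passed, with 0 at an unadjusted p below 0.05. Their sums overlapped, at 629 to 985 in PBS and 571 to 1643 in HDM for B cells and 890 to 1148 and 824 to 1284 for NK and CD8 T cells, and HDM replicate 3 was the highest array in both. No marker was at 0, since the processed signals have no zero. The part of these cells in the cytokine differences was not tested.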

How the data were processed

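The members and gene lists were chosen with earlier results of these data known. Per the submitters' processing notes, the authors used RMA, which corrects background, equalises array quantiles and summarises probes, and deposited 1 log2 value for each probe set and array. Its version, filters and detection calls are not given in the sources used here. The method makes arrays nearly equal in distribution, so a change in total RNA per cell cannot be seen. No batch was given, and the number of arrays limits the precision.

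Of 33960 probe sets, 23521 had exactly 1 gene symbol, 1814 several and 8625 none in the platform annotation. They gave 22180 genes, of which 21994 matched RefSeq by gene ID and none changed name. Any 2 arrays shared at most 5 identical values. Groups were compared by limma 3.58.1 under R 4.3.3 (linear fit, then empirical Bayes with a trend on mean signal, two-sided, Benjamini-Hochberg over 22180 genes, threshold 0.05). SEs are moderated. The fit was tested on simulated data. Differences between cytokines and neighbours used exact permutation (scipy 1.17.1).

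Same-numbered arrays deviated together from their group means (correlation over genes 0.428, 0.172 and 0.531 for numbers 1, 2 and 3, each above 0.1). Blocked values, or counts for a list, therefore stand beside the calls they alter. The labels do not say that the numbers pair samples. PBS replicate 1 and HDM replicate 2 also correlated (0.246), more than the 2 arrays numbered 2 did. Deviations from a group mean cancel within the group, so these correlations depend on each other.

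Named genes were the 8 members, passing region genes or else the nearest neighbours, up to 4 passing genes per list with the largest change (the 2 largest where none passed), Gata3, Il10 and Ifng, and the 5 genes most like Il4, Il5 and Il13, leaving out predicted genes, small RNAs and receptor segments. Others are named to give a list's remaining calls or members of known role, after their values were seen. Alternatives were filters on dim genes, other normalizations, variance models, array weights, other uses of probe sets, the block, and leaving out arrays.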

Additional observations from a re-analysis of the deposited data

How the results depend on the processing

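Il13 and Il5 rose under every planned setting with at least 5 arrays, their differences running from 3.07 to 3.77 and from 1.97 to 2.51 without 1 array. Without both arrays numbered 1 or both numbered 2 they kept their direction but not the call (3.23 and 3.15 for Il13, 2.21 and 1.94 for Il5), as did Il4 (1.37 and 1.34); so few genes passed there (6 and 11 higher, 0 lower in both, with 1222 and 759 lower at an unadjusted p below 0.05) that they say little of these genes. Il4 also lost the call with repeated quantile normalization (1.60), centring on medians (1.61), no intensity trend, robust variance, averaged probe sets and adjustment over all probe sets with 1 symbol (1.62 in each, adjusted p from 0.0501 to 0.0639), and it ranged from 1.32 to 2.09 without 1 array. The cause was not tested.

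Csf2 turned sign with repeated quantile normalization (−0.00034), array weights (−0.01) and without both arrays numbered 3 (−0.04), and ranged from −0.02, without HDM replicate 3, to 0.07 without 1 array; it never passed. Rad50 gained a call under the replicate block (0.64) and when both arrays numbered 3 were omitted (0.70), Kif3a and Irf1 with array weights (0.53 and −0.60) and without both arrays numbered 3 (0.63 and −0.74). Without 1 array Rad50 ran from 0.44 to 0.90, Kif3a from 0.36 to 0.64 and Irf1 from −0.72 to −0.37. Il3 did not pass under any setting. The filters dropped Il3 and Csf2.

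Over all genes, 914 were higher and 923 lower with array weights, 1319 and 1334 under the replicate block, 1250 and 1326 when both arrays numbered 3 were omitted, and 557 were lower with a filter at the median, which tests fewer genes. Without 1 array the counts ran from 177 to 845 higher and from 41 to 722 lower, the largest without HDM replicate 3. The block changed the call of no member other than Rad50.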
